A study of Mus musculus with 36 samples.

Results

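The 10 lysosomal cathepsin genes Ctsa, Ctsb, Ctsc, Ctsd, Ctse, Ctsh, Ctsk, Ctsl, Ctss and Ctsz were followed by RNA sequencing in mouse myeloid cells. They were chosen by gene symbol, and all 10 were found among the 56026 to 57252 gene models of the deposited tables. The study took granulocyte-macrophage progenitors (GMP) and monocytes from bone marrow. It took tumour-associated macrophages (TAM) from 2 mouse tumour models, the melanoma line B16-F10 and the colon carcinoma line MC38. Each population came from wild-type (WT) mice given OMV-SIRP-G, OMV-SIRP or phosphate-buffered saline (PBS), with 3 libraries per group and 36 in all. OMV stands for outer membrane vesicle, a particle shed from the bacterial outer membrane that the study engineered, and the labels spell out neither SIRP nor G. The design text speaks of 3 samples per group being pooled and does not say whether the 3 libraries of a group were separate mice, so p-values measure the spread between these libraries, which may be technical. The labels give no age for the mice.

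Cathepsins are proteases that act mainly in the acidic lumen of lysosomes. They are made as inactive precursors, reach lysosomes largely by mannose 6-phosphate sorting, and become active when a propeptide is removed at low pH. In macrophages they break down engulfed cells and proteins, and several of them process antigen for display on major histocompatibility complex (MHC) class II.

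Among the cysteine cathepsins, Ctss (chr3:95526786-95556403, plus strand) trims the invariant chain of MHC class II in antigen-presenting cells, and Ctsl (chr13:64359337-64370890, minus strand) does the same in thymic epithelium. Ctsb (chr14:63122462-63145923, plus strand) is a broadly expressed protease with both endopeptidase and peptidyl-dipeptidase activity. Ctsh (chr9:90054152-90076089, plus strand) is an aminopeptidase, Ctsz (chr2:174427493-174439039, minus strand) a carboxypeptidase, and Ctsc (chr7:88278085-88310888, plus strand) the dipeptidyl peptidase that activates granule serine proteases such as neutrophil elastase. Ctsk (chr3:95499256-95509362, plus strand) is the main collagen-degrading protease of osteoclasts. The aspartic proteases are Ctsd (chr7:142375911-142388038, minus strand), a major lysosomal endopeptidase, and Ctse (chr1:131638306-131675505, plus strand), which is found in endosomes. Ctsa (chr2:164832873-164841032, plus strand) is a serine carboxypeptidase that also protects lysosomal galactosidase and neuraminidase. Positions are those of the deposited tables, on GRCm38.

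Short stretches of promoter are shown because lysosomal genes are known to share the motif CACGTG, bound by TFEB and its relatives, and because the myeloid factor PU.1 binds sequences such as GAGGAAGT. RefSeq (GRCm38.p6) promoter windows of 300 bases, from 250 before to 50 after a gene start, were at hand for 7 of the 10 genes, as 8 windows because Ctsa has a pair of starts. Both strands were searched, and capitals mark the motif.
Ctsa, chr2:164833749-164833778, plus strand: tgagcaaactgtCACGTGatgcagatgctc
Ctsa, chr2:164833766-164833795, plus strand: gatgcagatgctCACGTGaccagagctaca
Ctsd, chr7:142388048-142388077, minus strand: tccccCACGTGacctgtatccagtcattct
Ctsd, chr7:142387908-142387937, minus strand: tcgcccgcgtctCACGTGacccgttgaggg
Ctsl, chr13:64370739-64370768, minus strand: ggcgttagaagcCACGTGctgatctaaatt
Ctss, chr3:95526772-95526801, plus strand: aaatgaaagttcACTTCCTCattgtggatg
Ctsc, chr7:88277922-88277951, plus strand: tgtcactaactaACTTCCTCaggccacctc
CACGTG was present in windows of Ctsa, Ctsd and Ctsl, and in 7.15% of all 32851 windows. GAGGAAGT was present, on the strand opposite to the one printed, in windows of Ctss and Ctsc, and in 3.20% of all windows. The AP-1 motif TGANTCA, found in 7.81% of all windows, was in none of the 8 cathepsin windows. The windows of Ctsk and Ctsz held none of these 3 motifs. All printed stretches overlap annotated exons of their own gene except the Ctsc stretch and the first Ctsd stretch. A match is a run of letters and does not show that a factor binds there.

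Expression was measured as fragments per kilobase of gene length (FPKM), scaled to a depth value for each library. FPKM allows levels of different genes to be set side by side, but each level depends on the gene length used. Those lengths ran from 1358 bases for Ctss to 6489 for Ctsl, so orders and shares by FPKM hold for those lengths only. With PBS in B16 TAM, Ctsb had 65802 to 87065 reads and Ctsd 36588 to 40907, although Ctsd was higher in FPKM. The depth value used for scaling was 0.768 to 1.20 times the reads in genes of a library, and a ratio above 1 lowers its FPKM. Library depth ranged between 13036567 and 19822660 reads in genes. Groups were compared within a population by limma on log2(FPKM + 1), and a gene is said to have risen or fallen when its Benjamini-Hochberg adjusted p over all genes tested was under 0.05. Log2 changes are given ± SE, FPKM means ± SD with n = 3, and lists of 3 FPKM values are the 3 libraries of a group. All 10 cathepsins passed the filter on low values in all 4 populations, so each comparison tested all 10.

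Several libraries bore on the results. In the MC38 PBS libraries 10 macrophage markers summed to only 64.1 to 172 FPKM and 7 of the 10 reached 1 FPKM in all 3 libraries, against 1357 to 1389 FPKM and all 10 with OMV-SIRP-G and 1598 to 2262 FPKM and all 10 with OMV-SIRP. Mertk, a defining macrophage receptor, was at 0 in all 3 MC38 PBS libraries, so the macrophage label of that group had little support in its own markers. GMP libraries held 10 markers of maturing neutrophils at sums of 36018 to 37228 FPKM with OMV-SIRP-G, 57377 to 59615 FPKM with OMV-SIRP and 27389 to 38875 FPKM with PBS. These exceeded the sums of the 8 progenitor markers, 5890.4 to 6333 FPKM with OMV-SIRP-G, 5919.5 to 6123 FPKM with OMV-SIRP and 5176 to 6452 FPKM with PBS. B16 TAM libraries held 6 melanocyte genes at sums of 800.3 to 899 FPKM with OMV-SIRP-G, 2367 to 2612 FPKM with OMV-SIRP and 2879 to 3149 FPKM with PBS. Monocyte PBS replicate 2 differed from its companions, as its cathepsin values show further on. In bulk samples, fewer cells of a type and less RNA per cell cannot be told apart.

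By FPKM, the most abundant cathepsin differed between populations. With PBS, the 10 genes summed to 802 ± 65.9 FPKM in GMP and to 2629 ± 799.7 FPKM in monocytes. In the tumours the PBS sums were 3637 ± 56.0 FPKM for B16 TAM and 545 ± 77.0 FPKM for MC38 TAM. GMP and monocytes share a table. The tumour tables were scaled separately, so levels across tables are set side by side without a test. Ctsd was the most abundant in GMP of all 3 treatments, at 292 ± 23.9 FPKM with PBS, where it exceeded 98.8% of the protein-coding genes tested. Ctss led in monocytes of all 3 treatments, at 741, 1282 and 765 FPKM with PBS. In B16 TAM with PBS the order was Ctsd, Ctsb, Ctss, Ctsz and then Ctsa, and each of these 5 was above the next in every library. In MC38 TAM with PBS Ctsz was highest, at 173, 194 and 180.4 FPKM, and Ctsd and Ctsb, the next in order, overlapped. At the bottom, Ctsk averaged 1.08 ± 0.146 FPKM in GMP with PBS, and Ctse averaged 2.49 ± 0.693 FPKM in B16 TAM and 1.74 ± 1.81 FPKM in MC38 TAM with PBS. Ctse, unlike the other 9, was higher in GMP, at 20.7 ± 1.17 FPKM with PBS, than in the other 3 PBS groups, in every library, a description across tables that was not tested.

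**Figure D1:**
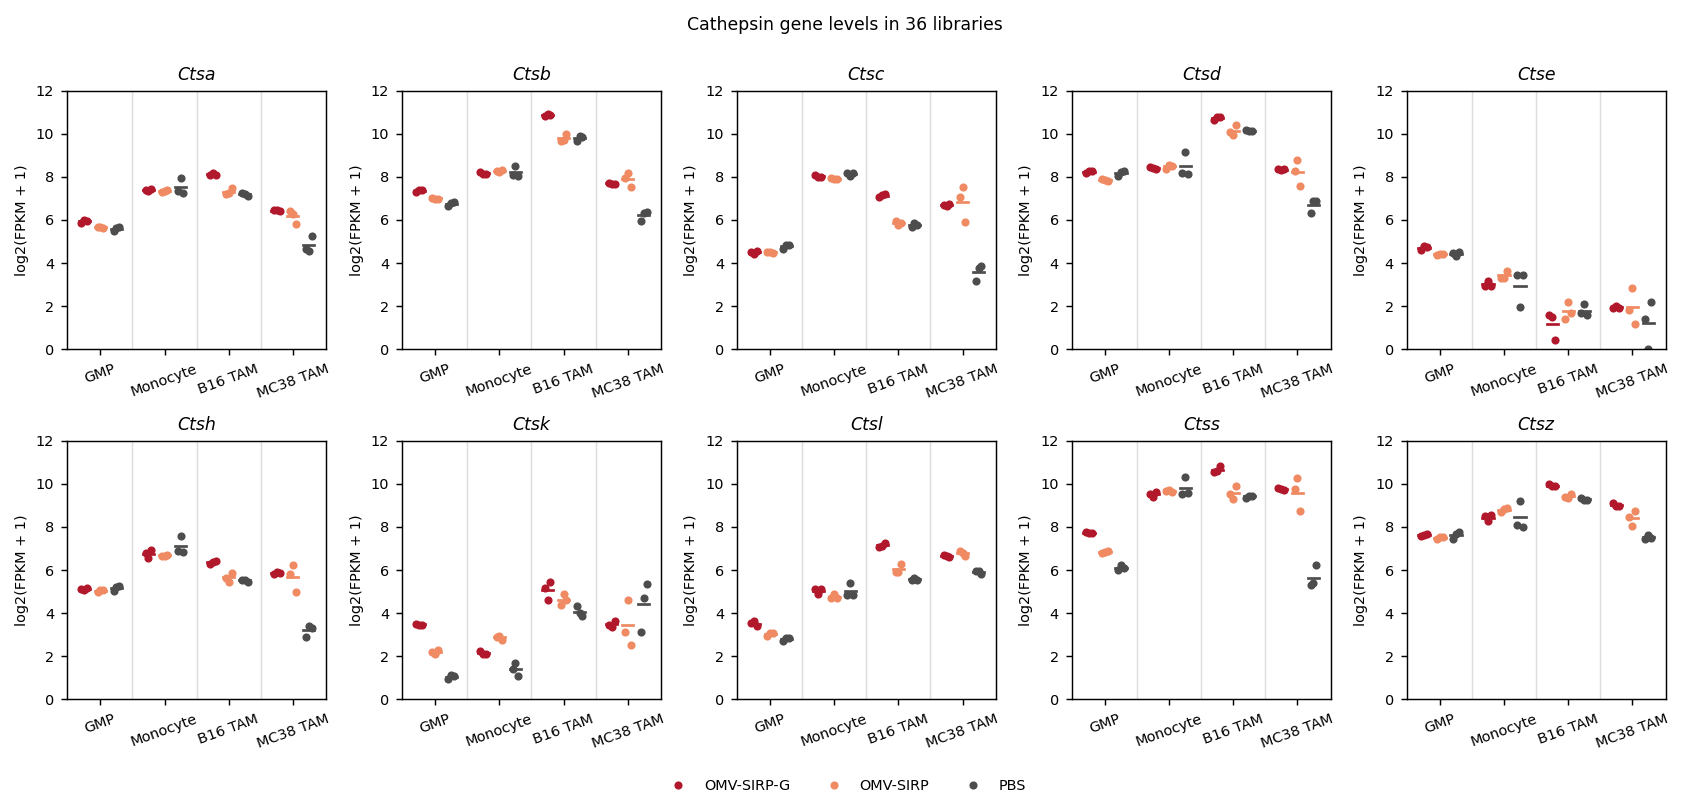
Log2(FPKM + 1) of each cathepsin in the 36 libraries, with populations along the horizontal axis and treatments by colour. Points are libraries and bars are means of 3. Ctss in MC38 TAM shows the widest gap, with PBS libraries at 38.3 to 74.8 FPKM and OMV-SIRP-G libraries at 831 to 887 FPKM.

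**Figure D2:**
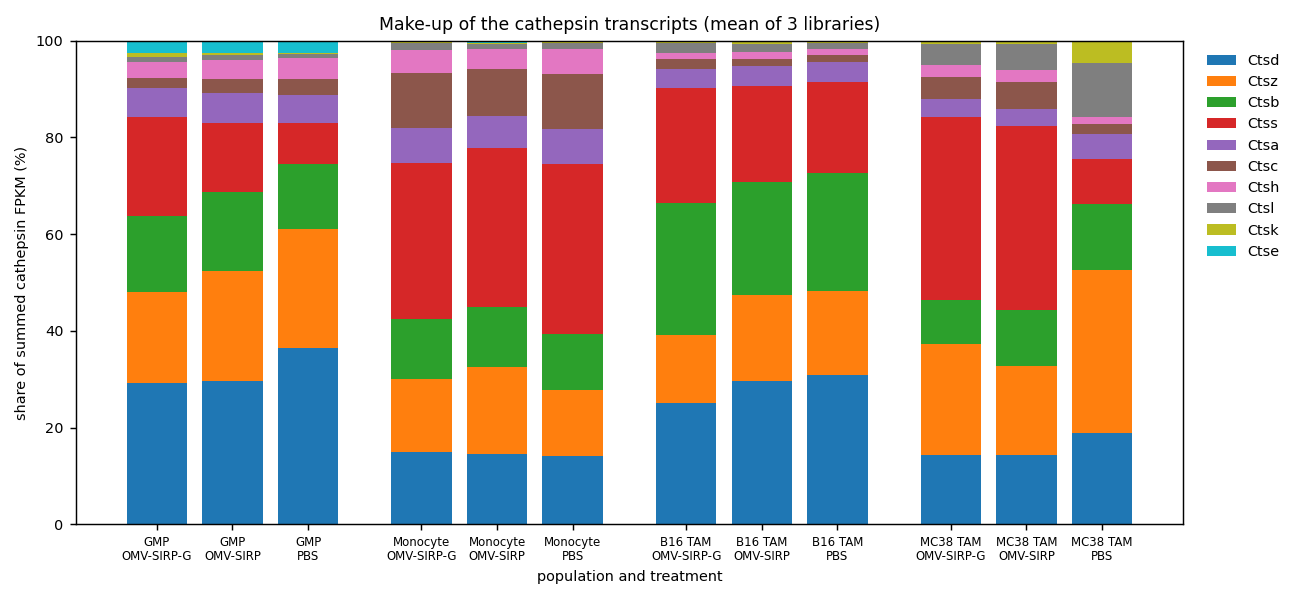
Share of the summed cathepsin FPKM taken by each gene, in percent on the vertical axis, as the mean of 3 libraries for each population and treatment. Ctss took 37.9% in MC38 TAM with OMV-SIRP-G, 38.0% with OMV-SIRP and 9.28% with PBS.

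In GMP, OMV-SIRP-G raised 6 cathepsins and lowered 1 relative to PBS, led by Ctsk and Ctss. OMV-SIRP raised 3 and lowered 2. Of all 12287 genes tested, 6.76% rose and 5.22% fell with OMV-SIRP-G, and 10.6% rose and 7.52% fell with OMV-SIRP. The median log2 change of the 10 cathepsins was 0.31 with OMV-SIRP-G, beside 0.00 over all genes, and 0.01 with OMV-SIRP, beside 0.02.

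Ctsk, the lowest of the 10 in GMP with PBS, had 10.4, 10.1 and 9.84 FPKM with OMV-SIRP-G, 3.54, 3.24 and 3.84 FPKM with OMV-SIRP and 0.915, 1.20 and 1.12 FPKM with PBS. The 3 groups were fully separate, in that order. The log2 change was 2.42 ± 0.07, adjusted p = 1.43e-07 with OMV-SIRP-G against PBS, and 1.13 ± 0.07, adjusted p = 1.52e-05 with OMV-SIRP against PBS. OMV-SIRP-G also exceeded OMV-SIRP (log2 change 1.29 ± 0.07, adjusted p = 2.19e-05). The OMV-SIRP-G mean was 9.37 times the PBS mean in FPKM, a ratio that the added 1 FPKM shrinks on the log2 scale.

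Ctss, the invariant chain protease, followed the same order at a much higher level. Its FPKM were 214, 212 and 209 with OMV-SIRP-G, 109.7, 114 and 116 with OMV-SIRP and 62.1, 74.4 and 68.4 with PBS, with no overlap between any pair of groups. The log2 change against PBS was 1.62 ± 0.07, adjusted p = 6.90e-07 with OMV-SIRP-G and 0.72 ± 0.07, adjusted p = 9.55e-05 with OMV-SIRP, and OMV-SIRP-G exceeded OMV-SIRP by 0.90 ± 0.07, adjusted p = 7.10e-05. Its share of the summed cathepsin FPKM was 20.5 ± 0.732% with OMV-SIRP-G, 14.4 ± 0.420% with OMV-SIRP and 8.51 ± 0.507% with PBS.

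Ctsk and Ctss lie next to each other on chromosome 3, on the same strand, with 17423 bases between the end of Ctsk and the start of Ctss. Their GMP values had a Pearson correlation of 0.998 over the 9 libraries, the highest of the cathepsin pairs in that population. The same pair had 0.718 in B16 TAM, -0.058 in monocytes and -0.336 in MC38 TAM, and all 4 values describe libraries that share their treatments. Arnt, a transcription factor gene upstream of Ctsk, had log2 changes of 0.01 ± 0.07 with OMV-SIRP-G and 0.04 ± 0.07 with OMV-SIRP against PBS. Golph3l, downstream of Ctss, had 0.07 ± 0.07 with OMV-SIRP-G and 0.14 ± 0.07 with OMV-SIRP, and neither gene passed the test. Hormad1, a meiosis gene between Ctss and Golph3l, was below the filter.

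**Figure D3:**
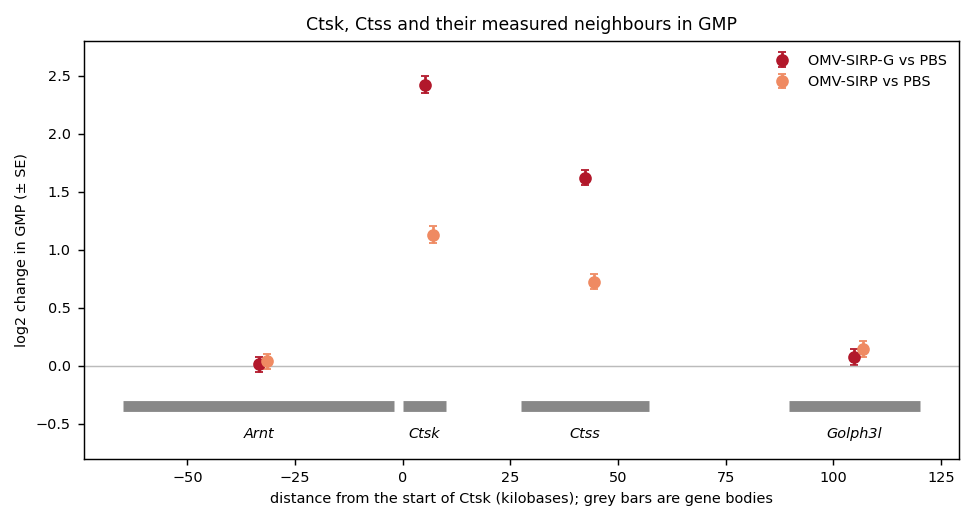
Log2 change ± SE in GMP of OMV-SIRP-G and of OMV-SIRP against PBS (vertical axis) for the genes around Ctsk and Ctss, by distance from the start of Ctsk in kilobases (horizontal axis). Grey bars are gene bodies. Ctsk (2.42 with OMV-SIRP-G and 1.13 with OMV-SIRP) and Ctss (1.62 with OMV-SIRP-G and 0.72 with OMV-SIRP) stand above Arnt and Golph3l, which lie near 0.

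Ctsb and Ctsl rose with OMV-SIRP-G in GMP. Ctsb had 155, 167 and 164 FPKM with OMV-SIRP-G, 131, 126 and 125 FPKM with OMV-SIRP and 98.3, 109 and 114 FPKM with PBS, and no groups overlapped. Its log2 change was 0.59 ± 0.06, adjusted p = 0.000333 with OMV-SIRP-G and 0.25 ± 0.06, adjusted p = 0.0263 with OMV-SIRP. The OMV-SIRP call on Ctsb was lost when OMV-SIRP replicate 1, 2 or 3 or PBS replicate 2 was left out, with adjusted p up to 0.087, and under scaling to total reads. Ctsl had 10.5, 11.6 and 9.42 FPKM with OMV-SIRP-G, 6.66, 7.37 and 7.44 FPKM with OMV-SIRP and 5.59, 6.13 and 6.26 FPKM with PBS. The OMV-SIRP-G change of Ctsl was 0.71 ± 0.08, adjusted p = 0.000349. Its OMV-SIRP change, 0.22 ± 0.08, adjusted p = 0.0773, did not pass although the groups did not overlap.

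Ctsc, the activator of granule proteases, was the cathepsin that fell with both treatments in GMP. Its FPKM were 22.1, 20.7 and 22.3 with OMV-SIRP-G, 21.8, 21.6 and 21.5 with OMV-SIRP and 24.3, 27.6 and 27.4 with PBS. The log2 change was -0.27 ± 0.06, adjusted p = 0.014 with OMV-SIRP-G and -0.28 ± 0.06, adjusted p = 0.00922 with OMV-SIRP. The treated groups overlapped each other and lay below every PBS library. The OMV-SIRP-G call was lost without OMV-SIRP-G replicate 2 or PBS replicate 2 (adjusted p up to 0.0613).

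Ctsd differed between the treatments in GMP. It had 285, 309 and 306 FPKM with OMV-SIRP-G, 241, 229.9 and 226 FPKM with OMV-SIRP and 265, 300.03 and 311 FPKM with PBS. It fell with OMV-SIRP (-0.33 ± 0.07, adjusted p = 0.013), was 0.04 ± 0.07, adjusted p = 0.771 with OMV-SIRP-G against PBS, and was higher with OMV-SIRP-G than with OMV-SIRP (0.37 ± 0.07, adjusted p = 0.00903). The OMV-SIRP call was lost without OMV-SIRP replicate 2 or 3 (adjusted p up to 0.0567). Ctsa rose with OMV-SIRP-G (0.35 ± 0.06, adjusted p = 0.00661), and Ctse did so less firmly (0.27 ± 0.06, adjusted p = 0.0154), losing its call without OMV-SIRP-G replicate 2 or 3 or PBS replicate 2 (adjusted p up to 0.0657).

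Ctsh and Ctsz did not pass in the comparisons with PBS. Ctsh was at -0.06 ± 0.07 with OMV-SIRP-G and -0.14 ± 0.07 with OMV-SIRP, and Ctsz at -0.02 ± 0.08 with OMV-SIRP-G and -0.13 ± 0.08 with OMV-SIRP. Both became lower calls with OMV-SIRP under scaling to total reads and without PBS replicate 1. With scaling to total reads the OMV-SIRP split against PBS was thus 2 higher and 4 lower, in place of 3 and 2, beside 6.55% of all genes higher and 14.6% lower in that fit. Directly compared, OMV-SIRP-G exceeded OMV-SIRP for 7 of the 10 genes and was lower for none, against 6.7% of all genes higher and 8.12% lower. The cathepsins outside these 7 were Ctsc, Ctsh and Ctsz. Ctsa lost this call without OMV-SIRP replicate 2 or 3 or OMV-SIRP-G replicate 2 or 3 (adjusted p up to 0.0616).

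Macrophage markers moved in the same libraries. The 10 markers summed to 330.1 to 348 FPKM in GMP with OMV-SIRP-G, 254 to 265 FPKM with OMV-SIRP and 202 to 227 FPKM with PBS. Of the 10, 7 reached 1 FPKM in all 3 libraries with OMV-SIRP-G, 7 with OMV-SIRP and 6 with PBS. No macrophage marker was at 0 in all 3 libraries of a GMP group. Of the 8 tested, 5 rose and none fell with OMV-SIRP-G, and 4 rose and 2 fell with OMV-SIRP. Of the 8 monocyte markers, 3 rose and 1 fell with OMV-SIRP-G, and 1 rose and 5 fell with OMV-SIRP. Of the 10 neutrophil markers, 6 rose with OMV-SIRP-G and 10 with OMV-SIRP. Markers of eosinophils, of mast cells and basophils and of erythroid cells were lower. The 7 eosinophil markers summed to 2985 to 3088 FPKM with OMV-SIRP-G, 2523 to 2823 FPKM with OMV-SIRP and 3768 to 4951 FPKM with PBS, and 5 fell with OMV-SIRP-G and 7 with OMV-SIRP. The 6 mast cell and basophil markers summed to 588 to 624 FPKM with OMV-SIRP-G, 423 to 446 FPKM with OMV-SIRP and 774 to 937 FPKM with PBS, and 4 fell with OMV-SIRP-G and 6 with OMV-SIRP. Erythroid markers summed to 5.21 to 6.46 FPKM with OMV-SIRP-G, 5.10 to 6.32 FPKM with OMV-SIRP and 39.8 to 56.6 FPKM with PBS, and all 4 tested fell with both treatments. Dendritic cell markers summed to 10.9 to 13.2 FPKM with OMV-SIRP-G, 5.27 to 6.31 FPKM with OMV-SIRP and 6.05 to 6.62 FPKM with PBS, and the 3 tested rose with OMV-SIRP-G. Osteoclast markers summed to 17.3 to 17.9 FPKM with OMV-SIRP-G, 13.3 to 13.5 FPKM with OMV-SIRP and 11.8 to 13.3 FPKM with PBS, with 2 of 6 at 1 FPKM or more in each group and Calcr, the calcitonin receptor, at 0 in all 3 OMV-SIRP libraries. Of the 2 osteoclast markers tested, 1 rose with OMV-SIRP-G, namely Acp5 (1.08 ± 0.17, adjusted p = 0.00397), and 0 were called with OMV-SIRP. The part of other cell types in the GMP changes was not tested.

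In monocytes, Ctsk was the cathepsin that passed, with both treatments. Its FPKM were 3.72, 3.23 and 3.36 with OMV-SIRP-G, 6.53, 6.69 and 5.80 with OMV-SIRP and 1.61, 2.27 and 1.11 with PBS. The groups were separate, with OMV-SIRP highest, whereas in GMP OMV-SIRP-G was highest. The log2 change against PBS was 0.76 ± 0.16, adjusted p = 0.0376 with OMV-SIRP-G and 1.48 ± 0.16, adjusted p = 0.00149 with OMV-SIRP. Leaving out any single library of the comparison except PBS replicate 2 ended the OMV-SIRP-G call (adjusted p up to 0.162), while the OMV-SIRP call held without any 1 library. Between the treatments, the log2 change of OMV-SIRP-G against OMV-SIRP was -0.73 ± 0.16, adjusted p = 0.0562, which missed the threshold.

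The single higher call among the 10 cathepsins in each comparison compares with 1.53% of 12028 genes higher with OMV-SIRP-G and 3.07% with OMV-SIRP. None of the 10 fell, against 2.14% of all genes with OMV-SIRP-G and 5.46% with OMV-SIRP, and 1 of 10 had an unadjusted p under 0.05 in each comparison. Between OMV-SIRP-G and OMV-SIRP limma called no cathepsin in monocytes, where 1.59% of all genes were higher and 0.848% lower, with 1 at an unadjusted p under 0.05 and 1 called by limma voom on recovered reads.

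The monocyte comparisons with PBS depended on PBS replicate 2. Ctss was at 1282 FPKM in that library and at 741 and 765 FPKM in the other PBS libraries, and Ctsd at 569 FPKM against 288 and 277 FPKM. Ctsz was at 597 FPKM against 273 and 256 FPKM. These were the highest Ctss, Ctsd and Ctsz FPKM values of the 9 monocyte libraries, and Ctse in the same library was the lowest of the 9, at 2.86 FPKM. The depth used to scale that library was 0.768 times its reads in genes, against 0.944 and 0.943 times in the other PBS libraries. The lower ratio raises its FPKM, and in recovered reads Ctss was at 22830 there against 16900 and 17353. That library also held Elane, the progenitor gene for neutrophil elastase, at 721 FPKM, against 311 and 312 FPKM in the other PBS libraries. Over the groups, the 8 progenitor markers summed to 229 to 274 FPKM with OMV-SIRP-G, 426 to 479 FPKM with OMV-SIRP and 796 to 1799 FPKM with PBS, and the 10 macrophage markers to 836 to 849 FPKM with OMV-SIRP-G, 1037 to 1178 FPKM with OMV-SIRP and 824 to 1373 FPKM with PBS. Erythroid markers summed to 17.1 to 21.3 FPKM with OMV-SIRP-G, 8.51 to 9.61 FPKM with OMV-SIRP and 138 to 426 FPKM with PBS, and eosinophil markers to 42.5 to 53.9 FPKM with OMV-SIRP-G, 24.4 to 28.5 FPKM with OMV-SIRP and 92.4 to 209 FPKM with PBS. The part of other cell types in the monocyte values was not tested.

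Without PBS replicate 2, OMV-SIRP raised 4 cathepsins and lowered 1. Calls rose over the whole table in that fit, to 12.6% of 11854 genes higher and 17.4% lower with OMV-SIRP, so the cathepsin counts are read against those shares. Those higher were Ctsk (1.64 ± 0.11, adjusted p = 4.15e-05), Ctsz (0.75 ± 0.09, adjusted p = 0.000762), Ctsd (0.34 ± 0.07, adjusted p = 0.00782) and Ctsb (0.20 ± 0.06, adjusted p = 0.0349). Ctsc was lower (-0.26 ± 0.05, adjusted p = 0.00888). Against the same 2 PBS libraries, where 5.66% of all genes were higher and 6.82% lower, OMV-SIRP-G raised Ctsk, Ctsz (0.38 ± 0.09, adjusted p = 0.0329) and Ctsd (0.26 ± 0.07, adjusted p = 0.0443) and lowered Ctse (-0.44 ± 0.11, adjusted p = 0.04). With all libraries, none of Ctsb, Ctsc, Ctsd, Ctse or Ctsz passed in either monocyte comparison with PBS. Ctss, at 735 ± 57.6 FPKM with OMV-SIRP-G, 812 ± 22.3 FPKM with OMV-SIRP and 929 ± 306 FPKM with PBS, did not pass with or without that library.

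In B16 TAM, OMV-SIRP-G raised 9 of the 10 cathepsins relative to PBS and OMV-SIRP raised none. Among all 12542 genes tested 7.83% rose and 7.28% fell with OMV-SIRP-G, and 0.885% rose and 0.566% fell with OMV-SIRP. The median cathepsin change was 0.97 with OMV-SIRP-G, beside -0.03 for all genes, and 0.12 with OMV-SIRP, beside -0.01. With OMV-SIRP, 2 of the 10 had an unadjusted p under 0.05, and voom on recovered reads called Ctsl, which limma placed at 0.47 ± 0.12, adjusted p = 0.144.

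Ctsl changed most in B16 TAM. It had 132, 139.6 and 153 FPKM with OMV-SIRP-G, 59.3, 58.9 and 77.4 FPKM with OMV-SIRP and 45.2, 48.4 and 46.1 FPKM with PBS. The log2 change with OMV-SIRP-G against PBS was 1.58 ± 0.12, adjusted p = 3.93e-05, and every OMV-SIRP-G library was above all others. By FPKM, Ctsb became the most abundant cathepsin with OMV-SIRP-G, at 1835, 1905 and 1877 FPKM. It had 820.5, 836 and 1008 FPKM with OMV-SIRP and 803, 960.1 and 914 FPKM with PBS. The OMV-SIRP-G mean of Ctsb was 2.10 times the PBS mean (1.07 ± 0.11, adjusted p = 0.000124), while the OMV-SIRP and PBS libraries overlapped.

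Ctss had 1509, 1557 and 1795 FPKM with OMV-SIRP-G, 737, 628 and 941 FPKM with OMV-SIRP and 659, 694 and 701 FPKM with PBS, a rise of 1.24 ± 0.14, adjusted p = 0.000264. Ctsc, which fell in GMP, rose here by 1.36 ± 0.10, adjusted p = 3.25e-05, with 132, 141 and 145 FPKM with OMV-SIRP-G, 61.5, 53.6 and 56.5 FPKM with OMV-SIRP and 49.7, 57.4 and 53.5 FPKM with PBS. Ctsa (0.93 ± 0.10), Ctsh (0.84 ± 0.12), Ctsz (0.62 ± 0.09) and Ctsd (0.61 ± 0.11) rose as well. All of these kept their call without any 1 library. Ctsk rose by 1.00 ± 0.22, adjusted p = 0.0127, and its call was lost without PBS replicate 3 (adjusted p = 0.0522).

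Ctse was the exception, listed at 2.03, 1.81 and 0.333 FPKM with OMV-SIRP-G, 1.67, 3.54 and 2.24 FPKM with OMV-SIRP and 2.21, 3.28 and 1.99 FPKM with PBS (-0.62 ± 0.34, adjusted p = 0.272). Against OMV-SIRP, OMV-SIRP-G was higher for 8 of the 10 and lower for none, with 6.35% of all genes higher and 5.62% lower. The 2 not called were Ctsk and Ctse.

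Macrophage markers rose in the same B16 comparison. Their sum was 9506 to 10021 FPKM with OMV-SIRP-G, 4376 to 6339.6 FPKM with OMV-SIRP and 4919 to 5503 FPKM with PBS, all 10 reached 1 FPKM in every library, and all 10 rose with OMV-SIRP-G with a median log2 change of 1.10, against 0.97 for the cathepsins. All 6 melanocyte genes fell, with a median of -1.68. Of 8 T and NK cell markers the sums were 89.6 to 118 FPKM with OMV-SIRP-G, 86.6 to 111 FPKM with OMV-SIRP and 231 to 313 FPKM with PBS. Haemoglobin and other erythroid genes summed to 3233 to 3267 FPKM with OMV-SIRP-G, 2220.1 to 3101 FPKM with OMV-SIRP and 16535 to 17906 FPKM with PBS. Mitochondrial genes took 13.02 to 14.2% of reads with OMV-SIRP-G, 18.5 to 21.3% with OMV-SIRP and 15.2 to 19.7% with PBS, and scaling to reads outside these genes left the same 9 calls against PBS and the same 8 against OMV-SIRP. The part of cell make-up in the B16 cathepsin changes was not tested.

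In MC38 TAM, both treatments raised the same 8 cathepsins, led by Ctss, Ctsc and Ctsh, and Ctsk and Ctse did not pass. OMV-SIRP-G and OMV-SIRP share the PBS libraries here. Of 14089 genes tested, 13.1% rose and 6.86% fell with OMV-SIRP-G, and 7.4% rose and 3.49% fell with OMV-SIRP. The cathepsin median was 1.56 with OMV-SIRP-G, beside 0.07 for all genes, and 1.44 with OMV-SIRP, beside 0.03.

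Ctss rose most. It had 887, 859 and 831 FPKM with OMV-SIRP-G, 865, 1220.5 and 429 FPKM with OMV-SIRP and 38.3, 41.1 and 74.8 FPKM with PBS. Every treated library lay above every PBS library, and the OMV-SIRP libraries were the most spread. The log2 change was 4.10 ± 0.37, adjusted p = 0.00034 with OMV-SIRP-G and 3.94 ± 0.37, adjusted p = 0.000543 with OMV-SIRP, and the mean was 16.7 times the PBS mean with OMV-SIRP-G and 16.3 times with OMV-SIRP.

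Ctsc came next, with 104, 100.04 and 105 FPKM with OMV-SIRP-G, 132, 186 and 58.3 FPKM with OMV-SIRP and 8.10, 12.4 and 13.4 FPKM with PBS (3.11 ± 0.37 with OMV-SIRP-G and 3.23 ± 0.37 with OMV-SIRP). Ctsh had 54.9, 58.2 and 57.3 FPKM with OMV-SIRP-G, 56.0, 73.8 and 31.1 FPKM with OMV-SIRP and 6.35, 9.67 and 8.93 FPKM with PBS (2.65 ± 0.29 with OMV-SIRP-G and 2.49 ± 0.29 with OMV-SIRP). For both genes the treated libraries were all above PBS.

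Ctsb rose by 1.47 ± 0.19 with OMV-SIRP-G and 1.66 ± 0.19 with OMV-SIRP. Ctsd rose by 1.66 ± 0.27 with OMV-SIRP-G and 1.53 ± 0.27 with OMV-SIRP, and Ctsa by 1.62 ± 0.22 with OMV-SIRP-G and 1.35 ± 0.22 with OMV-SIRP. None of their treated libraries overlapped PBS. Ctsl had the smallest log2 changes of the 8, at 103, 99.8 and 96.4 FPKM with OMV-SIRP-G, 118, 109 and 99.0 FPKM with OMV-SIRP and 61.3, 61.3 and 56.1 FPKM with PBS (0.73 ± 0.13, adjusted p = 0.00506 with OMV-SIRP-G and 0.85 ± 0.13, adjusted p = 0.00476 with OMV-SIRP). Ctsz rose by 1.51 ± 0.17, adjusted p = 0.00085 with OMV-SIRP-G and 0.91 ± 0.17, adjusted p = 0.0112 with OMV-SIRP. The OMV-SIRP call on Ctsz was lost under scaling to total reads and when the compared groups were fitted alone.

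Ctsk did not follow. It had 10.1, 9.23 and 11.5 FPKM with OMV-SIRP-G, 7.84, 23.7 and 4.72 FPKM with OMV-SIRP and 7.69, 25.4 and 40.5 FPKM with PBS. The PBS and OMV-SIRP libraries were each spread several-fold, and both overlapped the OMV-SIRP-G libraries (-0.92 ± 0.62, adjusted p = 0.332 with OMV-SIRP-G and -0.98 ± 0.62, adjusted p = 0.337 with OMV-SIRP). Ctse was listed at 0 in PBS replicate 2, and its log2 changes were 0.76 ± 0.59, adjusted p = 0.397 with OMV-SIRP-G and 0.75 ± 0.59, adjusted p = 0.436 with OMV-SIRP.

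Leaving out any single library kept all 8 calls in both MC38 comparisons with PBS. Directly compared, OMV-SIRP-G and OMV-SIRP differed for no cathepsin by limma or by voom, with 1 of 10 at an unadjusted p under 0.05 and 0.149% of all genes higher and 0.234% lower. Ctsz came closest (0.60 ± 0.17, adjusted p = 0.213) and was called without OMV-SIRP replicate 3 (0.76 ± 0.14, adjusted p = 0.0455), a fit in which 0.961% of all genes were higher and 0.425% lower.

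The same MC38 libraries differed widely in macrophage markers. The sums given above, 1357 to 1389 FPKM with OMV-SIRP-G, 1598 to 2262 FPKM with OMV-SIRP and 64.1 to 172 FPKM with PBS, did not overlap between treated and PBS libraries. All 10 rose, with a median log2 change of 3.58 with OMV-SIRP-G and 4.02 with OMV-SIRP, beside cathepsin medians of 1.56 with OMV-SIRP-G and 1.44 with OMV-SIRP. Neutrophil markers summed to 35.1 to 53.8 FPKM with OMV-SIRP-G, 39.5 to 169 FPKM with OMV-SIRP and 256 to 576 FPKM with PBS. Dendritic cell markers, 7 in all, summed to 707 to 787 FPKM with OMV-SIRP-G, 76.3 to 491 FPKM with OMV-SIRP and 137 to 207 FPKM with PBS. Mitochondrial genes took 6.06 to 6.46% of reads with OMV-SIRP-G, 15.2 to 21.5% with OMV-SIRP and 2.98 to 5.07% with PBS. Scaling to reads outside these genes left the same 8 calls in both comparisons. The part of cell make-up in the MC38 changes was not tested.

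**Figure D4:**
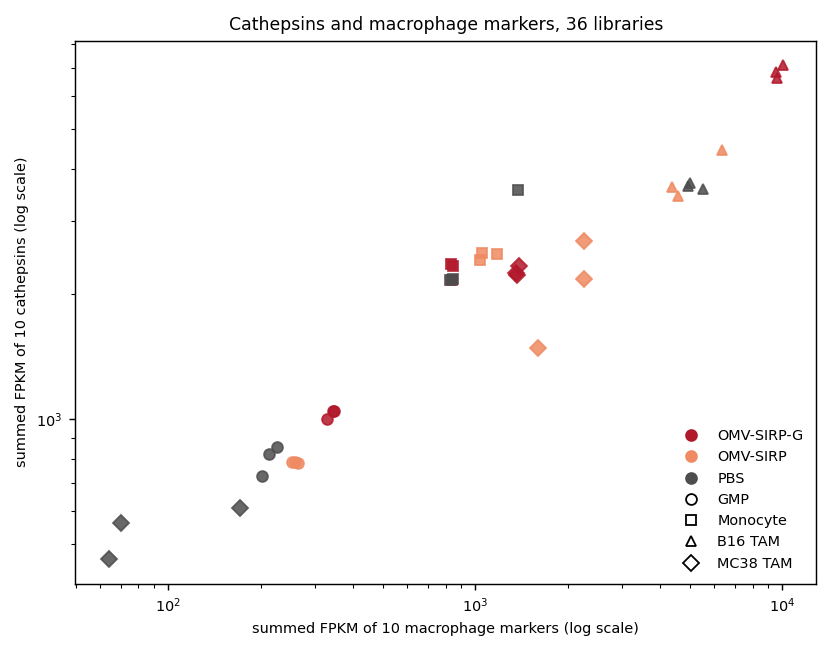
Summed FPKM of the 10 cathepsins (vertical axis, log scale) against the summed FPKM of 10 macrophage markers (horizontal axis, log scale) in the 36 libraries, with treatments by colour and populations by symbol. The MC38 PBS libraries lie at the lower left, at marker sums of 64.1 to 172 FPKM, and the B16 TAM libraries with OMV-SIRP-G at the upper right, at 9506 to 10021 FPKM. The 3 tables were scaled separately.

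**Figure D5:**
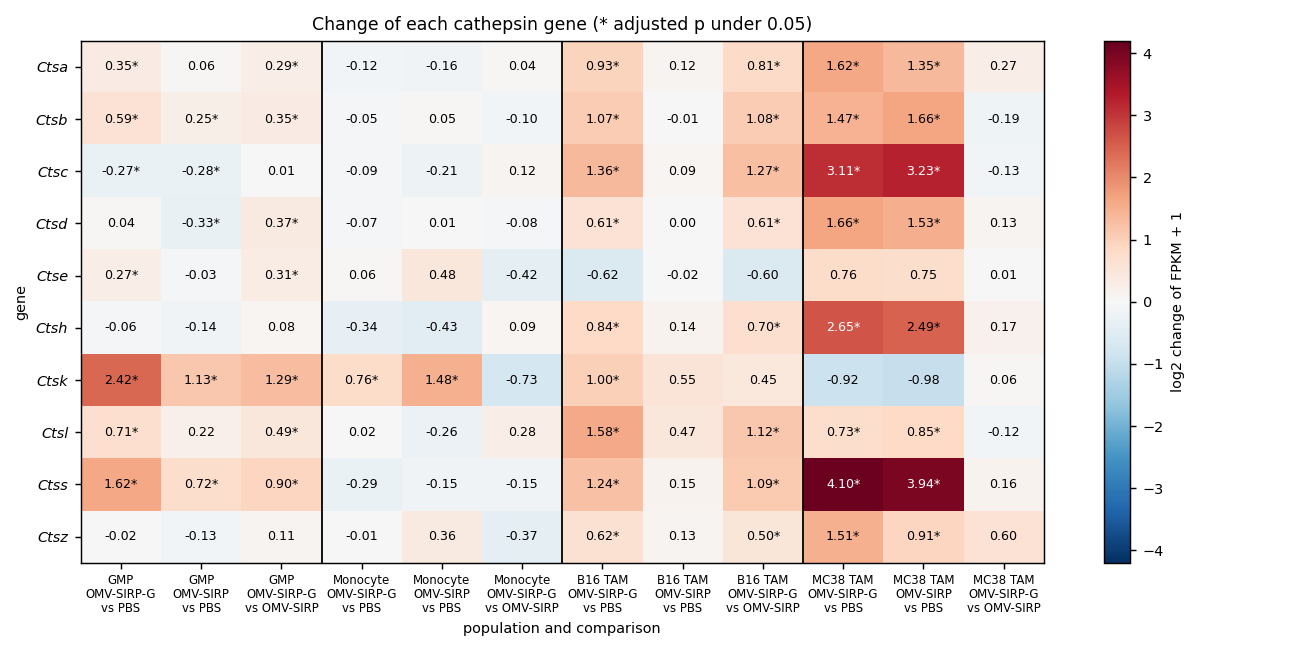
Log2 change of each cathepsin (rows) in the 12 comparisons (columns), by colour and number, with an asterisk where the limma adjusted p was under 0.05. OMV-SIRP-G against PBS shows 9 higher calls in B16 TAM, 8 in MC38 TAM, 6 in GMP and 1 in monocytes.

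Other genes of the lysosome were described by lists. In B16 TAM with OMV-SIRP-G against PBS, 17 of 29 measured members rose and 1 fell among other hydrolases (median log2 change 0.52), 6 of 10 measured members rose and 0 fell among membrane proteins (0.49), and 5 of 17 measured members rose and 0 fell among proton pump subunits (0.32), beside 15.1% of all genes called. The hydrolase that fell was Smpd1, acid sphingomyelinase (-1.15 ± 0.12, adjusted p = 0.000191). Among processing, sorting and class II partners, 6 of 12 measured members rose and 1 fell, and the one that fell was Sort1, the sorting receptor sortilin (-1.17 ± 0.17, adjusted p = 0.00111). Lgmn, the asparaginyl endopeptidase that processes cathepsins, had 1197 ± 14.2 FPKM with OMV-SIRP-G and 464 ± 22.8 FPKM with PBS (1.37 ± 0.14, adjusted p = 0.000163). Grn, progranulin, rose by 0.95 ± 0.09, adjusted p = 0.00011, and Psap, prosaposin, by 0.83 ± 0.09, adjusted p = 0.000199. Of the inhibitors, Cstb rose (0.95 ± 0.16, adjusted p = 0.00276) and Cst7 fell (-1.38 ± 0.17, adjusted p = 0.000485). Among lysosome regulators, 2 of 8 measured members rose and 1 fell. Flcn (0.75 ± 0.14, adjusted p = 0.00472) and Tfec (1.05 ± 0.22, adjusted p = 0.00959) rose, and Mitf fell (-1.13 ± 0.16, adjusted p = 0.00124). Tfec had a low PBS mean, at 0.955 FPKM. The 6 melanocyte genes fell in the same comparison, and the part of tumour cells in the Mitf change was not tested. Of 3 other cathepsin genes tested, 0 rose and 1 fell, Ctsw (-1.88 ± 0.40, adjusted p = 0.0121). All 8 T and NK cell markers fell in the same comparison, and the part of those cells in the Ctsw change was not tested.

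OMV-SIRP in B16 TAM raised 2 of the 12 partners, both of class II antigen processing, beside 1.45% of all genes called in either direction. Cd74, the invariant chain that Ctss trims, had 4105 ± 147 FPKM with OMV-SIRP and 2122 ± 268 FPKM with PBS (0.96 ± 0.10, adjusted p = 0.00117). Ifi30, a lysosomal thiol reductase, rose by 0.81 ± 0.10, adjusted p = 0.00322. No other member of the partner list was called with OMV-SIRP against PBS. Between OMV-SIRP-G and OMV-SIRP, 5 of 12 partners were higher and 2 lower, beside 12% of all genes called. Cd74 was lower with OMV-SIRP-G than with OMV-SIRP (-0.65 ± 0.10, adjusted p = 0.00263), whereas Ctss was higher (1.09 ± 0.14, adjusted p = 0.0009).

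In MC38 TAM with OMV-SIRP-G, 8 of 12 measured members rose and 0 fell among the partners, beside 19.9% of all genes called. With OMV-SIRP, 6 of 12 measured members rose and 0 fell, beside 10.9%. Cd74 rose by 3.88 ± 0.33, adjusted p = 0.00028 with OMV-SIRP-G and 3.74 ± 0.33, adjusted p = 0.000429 with OMV-SIRP. Of 6 inhibitors, 2 rose and 1 fell with OMV-SIRP-G and 2 rose with OMV-SIRP. Cst3, cystatin C, an extracellular inhibitor of cysteine cathepsins, rose by 2.54 ± 0.12, adjusted p = 2.72e-05 with OMV-SIRP-G and 1.89 ± 0.12, adjusted p = 0.000149 with OMV-SIRP, and Serpinb6a, a serine protease inhibitor, fell with OMV-SIRP-G (-1.08 ± 0.23, adjusted p = 0.0123). Among other hydrolases, 9 of 29 measured members rose and 1 fell with OMV-SIRP-G and 10 of 29 measured members rose and 0 fell with OMV-SIRP. Of the proton pump subunits, 4 of 17 measured members rose and 1 fell with OMV-SIRP-G and 1 of 17 measured members rose and 1 fell with OMV-SIRP, and the one that fell was Atp6v1h with both. Of 10 membrane proteins, 2 rose with each treatment. Of 8 lysosome regulators, 2 rose and 0 fell with each treatment. Tfeb rose by 2.08 ± 0.37 with OMV-SIRP-G and 1.49 ± 0.37 with OMV-SIRP. Tfec rose by 2.25 ± 0.55 with OMV-SIRP-G and 2.19 ± 0.55 with OMV-SIRP. Their PBS means were low, at 0.716 and 0.523 FPKM. The 2 other cathepsin genes tested, Ctsw and Ctso, rose with each treatment. Of 8 T and NK cell markers, 5 rose and 0 fell with OMV-SIRP-G, and 1 rose and 0 fell with OMV-SIRP. The part of those cells in the Ctsw and Ctso changes was not tested.

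In GMP, 4 of 12 measured members rose and 1 fell among the partners with OMV-SIRP-G, and 2 of 12 measured members rose and 1 fell with OMV-SIRP, beside 12% of all genes called with OMV-SIRP-G and 18.2% with OMV-SIRP. The partners Cd74 (1.72 ± 0.06, adjusted p = 3.08e-07) and Lgmn (1.18 ± 0.08, adjusted p = 2.18e-05) rose with OMV-SIRP-G. Igf2r, a mannose 6-phosphate receptor, fell with OMV-SIRP-G (-0.44 ± 0.07, adjusted p = 0.00433). With OMV-SIRP, Cd74 rose (1.18 ± 0.06, adjusted p = 4.71e-06) and Ifi30 fell (-0.28 ± 0.08, adjusted p = 0.0416). Of 9 inhibitors tested, 3 rose and Serpinb1a, an inhibitor of neutrophil serine proteases, fell with OMV-SIRP-G (-0.40 ± 0.07, adjusted p = 0.00685). The stefins Stfa2 (2.41 ± 0.14, adjusted p = 9.25e-06) and Stfa3 (1.90 ± 0.14, adjusted p = 5.67e-05) were called higher with OMV-SIRP-G, but these genes have near-identical copies and the split of their reads between them is uncertain. Among other hydrolases in GMP, 6 of 29 measured members rose and 2 fell with OMV-SIRP-G, beside 12% of all genes called, and 3 of 29 measured members rose and 7 fell with OMV-SIRP, beside 18.2%. In monocytes, 3 of 29 measured members rose and 0 fell among other hydrolases with OMV-SIRP-G, beside 3.67% of all genes called, and 5 of 29 measured members rose and 2 fell with OMV-SIRP, beside 8.53%. Acp5, an acid phosphatase also used as an osteoclast marker, rose with OMV-SIRP-G (1.89 ± 0.21, adjusted p = 0.00202), and Acp2, another acid phosphatase, rose with both treatments. Igf2r, which fell in GMP, was the 1 of 12 partners called in monocytes with each treatment. It rose there by 1.28 ± 0.22, adjusted p = 0.0166 with OMV-SIRP-G and 1.07 ± 0.22, adjusted p = 0.0221 with OMV-SIRP. Of 7 lysosome regulators tested, 1 rose with OMV-SIRP-G and 2 fell with OMV-SIRP in GMP, and 1 rose with OMV-SIRP in monocytes. Of 3 other cathepsin genes tested, 1 rose in GMP with each treatment. In monocytes 1 rose with OMV-SIRP and 1 fell with OMV-SIRP-G, Ctsg (-1.92 ± 0.29, adjusted p = 0.00868). Ctsg is also among the 8 progenitor markers, of which 4 fell and 0 rose in that comparison. The part of progenitors in the Ctsg change was not tested.

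Genes whose pattern was most like each cathepsin's were found by the lowest Pearson correlation over the 9 libraries within each of the 4 populations, among 9007 genes. Hexa, a subunit of beta-hexosaminidase, was closest to Ctsb (lowest correlation 0.92) and to Ctss (0.88). Cd68, a lysosomal membrane protein of macrophages, was second for Ctsb (0.86), and Pld3, a lysosomal nuclease, was closest to Ctsa (0.85). For Ctsl it was F7, coagulation factor VII (0.88), and for Ctsd the chemokine gene Ccl9 (0.87). For Ctsk the closest gene, Gdpd1, reached only 0.52. The points within a population share treatments and scaling, so these values describe the libraries.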

How the data were processed

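The authors deposited FPKM values in 3 tables: bone marrow, B16 and MC38. Per the submitters' processing notes, reads were processed on GRCm38 with featureCounts 1.5.0-p3, HISAT2 2.0.5 and StringTie among the tools. Settings were not stated in the sources used here. Multiplied by gene length, 100% of the deposited FPKM values worth under 1000 reads gave whole multiples of 1 read (tolerance 0.05 reads), and larger values were rounded to the nearest read. Depth was recovered, at 13036567 to 19822660 reads per library, where weakly expressed genes have the least precision. The depth implied by the FPKM scaling differed from the recovered reads in genes. In MC38 TAM it was 1.15 to 1.20 times those reads with PBS and 0.849 to 0.999 times with OMV-SIRP. The MC38 OMV-SIRP-G libraries were at 1.03 to 1.04 times. The tables were scaled separately, so tests were made within a population only.

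Log2(FPKM + 1) was fitted with limma 3.58.1 (statmod 1.5.0, R 4.3.3), with trend and robust empirical Bayes, over the 9 libraries of a population. Genes with at least 1 FPKM in at least 3 libraries were tested, and p-values were Benjamini-Hochberg adjusted within each of the 12 comparisons, at 0.05. The added 1 understates changes of low genes. The code was tested on data simulated with the same set spread between replicates in all populations. That spread was not taken from these libraries, so the test gives no error rates for them.

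The cathepsins and the gene lists were chosen with earlier results of these data known. All 10 cathepsins are named. From the lists, called members with the lowest adjusted p per list and comparison were eligible to be named, up to 3 for inhibitors, partners, other cathepsins and regulators and up to 2 for the rest. Elane, Sort1, Igf2r and Serpinb1a in GMP, Arnt, Golph3l and Hormad1 were chosen after their values or places were seen. So was Cd74 in B16 TAM for OMV-SIRP-G against OMV-SIRP. Alternatives were pseudocount 0.1, no filter, scaling to total reads, voom on recovered reads, a fold of at least 1.5, the compared groups alone, a replicate block and each library left out. Scaling to reads outside mitochondrial genes was added after the data were seen.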

Additional observations from a re-analysis of the deposited data

Results flagged for a closer look

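For some cathepsins every treated library lay above all libraries it was compared with in 1 population and below all of them in another. The difference between populations was not tested in any of these cases, and the log2 changes are those of the limma fits. Over all genes tested with OMV-SIRP against PBS, 16.4% were lower without overlap in GMP and 16.5% in monocytes. In MC38 TAM 15.5% were higher without overlap. For OMV-SIRP-G against PBS the shares were 14.7% lower in GMP, 17.4% higher in B16 TAM and 25.5% higher in MC38 TAM. With OMV-SIRP against PBS, Ctsc was -0.28 ± 0.06 in GMP and -0.21 ± 0.11 in monocytes, and 3.23 ± 0.37 in MC38 TAM. In the same comparison Ctsd was -0.33 ± 0.07 in GMP and 1.53 ± 0.27 in MC38 TAM, and Ctsh was -0.43 ± 0.20 in monocytes and 2.49 ± 0.29 in MC38 TAM. The monocyte changes of Ctsc and Ctsh did not pass the limma threshold with all libraries. With OMV-SIRP-G against PBS, Ctsc was -0.27 ± 0.06 in GMP, 1.36 ± 0.10 in B16 TAM and 3.11 ± 0.37 in MC38 TAM.

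Between OMV-SIRP-G and OMV-SIRP, Ctsk, Ctse, Ctsb and Ctsz were lower in monocytes and higher in at least 1 other population without overlap of libraries. Over all genes tested in monocytes, 15.7% were lower without overlap. The shares higher without overlap were 18.6% in GMP, 13.9% in B16 TAM and 12.4% in MC38 TAM. Ctsk was 1.29 ± 0.07 in GMP and -0.73 ± 0.16 in monocytes, and Ctse was 0.31 ± 0.06 in GMP and -0.42 ± 0.37 in monocytes. Ctsb was 0.35 ± 0.06 in GMP, -0.10 ± 0.15 in monocytes and 1.08 ± 0.11 in B16 TAM. Ctsz was -0.37 ± 0.30 in monocytes, against 0.11 ± 0.08 in GMP, 0.50 ± 0.09 in B16 TAM and 0.60 ± 0.17 in MC38 TAM. Monocytes did not run opposite to every other population, since Ctse was -0.60 ± 0.34 in B16 TAM and Ctsb -0.19 ± 0.19 in MC38 TAM, with overlapping libraries. None of the 4 monocyte differences passed the limma threshold.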

How the results depend on the processing

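The fold of at least 1.5 reused the log2 changes of the main fit, so its 120 values could only keep or lose a call, and 12 lost one. Counting these, 1680 log2 changes of single cathepsins under the alternatives were set beside the main fit. Of them, 1550 kept their direction and their side of the threshold, 43 lost a call and 19 gained one in the same direction. Another 65 changed sign without a call before or after, in 28 of 120 comparisons of a gene, most of all Ctse in monocytes with OMV-SIRP, at -0.03 without PBS replicate 2 in place of 0.48. The remaining 3 changed sign and became calls, in monocytes with OMV-SIRP-G against PBS when PBS replicate 2 was left out, where Ctsd became 0.26, Ctse -0.44 and Ctsz 0.38. Over all single libraries left out, the 3 ranged from -0.26 to 0.26, from -0.44 to 0.32 and from -0.23 to 0.38. Leaving out 1 library gave 3 to 7 called cathepsins for OMV-SIRP against PBS in GMP (with 11.4 to 17.7% of all genes called), in monocytes 0 to 4 with OMV-SIRP-G (1.69 to 12.5%) and 1 to 5 with OMV-SIRP against PBS (3.08 to 30.1%), and 0 to 1 for OMV-SIRP-G against OMV-SIRP in MC38 TAM (0 to 1.39%). In GMP, a fold of at least 1.5 left 4 called with OMV-SIRP-G (2.95% of all genes), 2 with OMV-SIRP (3.62%) and 2 between the treatments (2.46%). In monocytes, the 1 call with OMV-SIRP-G against PBS became 0 with no filter on low values (1.34% of all genes), with the compared groups alone (1.53%) and with the replicate block (2.01%). The replicate numbers were not taken as pairs, since the labels state no pairing and no comparison had all 3 same-number correlations of deviations above 0.1. Between the treatments in monocytes, 1 cathepsin was called with scaling to total reads (2.78% of all genes), 1 with voom (2.52%), 1 with scaling to reads outside mitochondrial genes (2.74%) and 3 with the compared groups alone (18.3%). In B16 TAM voom called 1 with OMV-SIRP (1.51%). Scaling to total reads moved the median of all genes by -0.15 for OMV-SIRP-G and -0.29 for OMV-SIRP against PBS in MC38 TAM. Relative to that median the cathepsins were then at 1.46 with OMV-SIRP-G, beside 1.49 before, and at 1.33 with OMV-SIRP, beside 1.41 before. For OMV-SIRP in monocytes it moved by 0.14, and relative to the median the cathepsins were at -0.01, beside -0.04. Scaling to reads outside mitochondrial genes moved it by -0.12 for OMV-SIRP-G in MC38 TAM, by -0.10 for OMV-SIRP-G in B16 TAM and by 0.14 for OMV-SIRP in monocytes, all against PBS. The causes of these differences were not tested. Depth limits Ctse in the tumour tables, Ctsk in bone marrow and other genes near 1 FPKM.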
